A study of Homo sapiens and Mus musculus with 55 samples.

Results

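The 6 libraries described here come from SUM159PT Tax-R cells that received an siRNA against MYC or a control siRNA, out of 55 RNA-sequencing libraries in the whole series. SUM159PT is an established human triple-negative breast cancer line with a mesenchymal-like profile. All 6 libraries are from the subline labelled Tax-R, an abbreviation that the labels do not expand, so the control cells carry the Tax-R background too. The members were chosen by their labels alone: 2 libraries labelled siMYC1 (MYC siRNA-1), 2 labelled siMYC2 (MYC siRNA-2) and 2 labelled siC (control siRNA), which together make up one deposited table. The siRNA sequences, doses and times are not given in the sources used here. The study's title concerns the repression of STING by MYC, and this experiment asks which transcripts change when MYC is lowered in these cells. Other libraries served for comparison. The same design in MDA-MB-436 Tax-R cells, another triple-negative line, has 6 libraries. SUM159PT Tax-R and parental cells whose labels name no siRNA have 2 libraries each.

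MYC is a transcription factor that pairs with MAX and binds E-box sequences, of which CACGTG is the best known. In proliferating cells it raises the output of genes for ribosome production, nucleotide synthesis and cell division, and through the partner MIZ1 it can hold down others, among them the cell cycle inhibitor CDKN1A. Many cell division genes are also controlled by other factors, such as the E2F family at S phase and the DREAM and MuvB complexes at mitosis, which act through a CHR element with the core TTTGAA. STING, encoded by STING1 (listed as TMEM173), is the adaptor that responds to the second messenger made by cGAS (CGAS, listed as MB21D1) when DNA is in the cytosol, and its activation induces interferons and chemokines.

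The libraries held 6638863 to 7728815 recovered reads, with 23391 to 24020 genes read at least once. Values are gene counts divided by a size factor per library, called normalized counts below; they are not per gene length, so levels are compared between libraries and not between genes. Fold changes are on the log2(value + 1) scale, siMYC minus siC, with the SE of the fit. The mesenchymal markers VIM (17932 to 19161 normalized counts), CD44 (1541 to 1826) and AXL (1789 to 2376) were present in all 6 libraries. MMP14, looked up with them, was low (8.20 to 25.1). Of luminal and epithelial markers, ESR1, EPCAM, GATA3 and FOXA1 did not exceed 6.27, 11.4, 12.8 and 21.2, but ERBB2 had 633 to 1163. The leukocyte markers PTPRC, CD68 and CD14 did not exceed 11.3, 11.8 and 3.10. Of 2 endothelial markers, CDH5 did not exceed 1.03, while PECAM1 had 124 to 151 normalized counts in siMYC and 48.1 to 55.9 in siC libraries; its part in the results was not tested. PGR, CDH1, CD3E, CD3D and MS4A1 were not analysed here. Because these are bulk samples of a line, fewer cells of a state and less RNA per cell cannot be told apart. The labels do not say whether replicates came from different cultures. The p-values therefore describe only the spread between these libraries, which may be technical.

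Libraries of the 2 MYC siRNAs were as alike as replicates of a single siRNA. A chi-square per gene on recovered reads, over genes with at least 20 reads in a pair of libraries, which is near 1 where libraries differ by sampling alone, was 1.05 to 1.22 between siMYC2 and siMYC1 libraries. It was 1.14 within siMYC1, 1.11 within siMYC2, 1.69 within siC, and 48.7 to 52.1 between any MYC siRNA library and any control library. The closest pair of all was the first siMYC1 library and the first siMYC2 library, whose counts still differed by more than sampling noise (chi-square test over 15769 genes, p = 5.91e-06). In limma's test no gene differed between siMYC2 and siMYC1 (0 of 15796 called, 0%, with 600 at an unadjusted p below 0.05). edgeR and DESeq2 on the recovered reads also called 0, with 645 and 38 genes at an unadjusted p below 0.05. Among genes with a mean of at least 50, the largest difference between the 2 siRNAs was 0.858 on the log2 scale. The median absolute difference over all tested genes was 0.0738 between the siRNAs, and 0.455 for MYC siRNA against control.

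**Figure D1:**
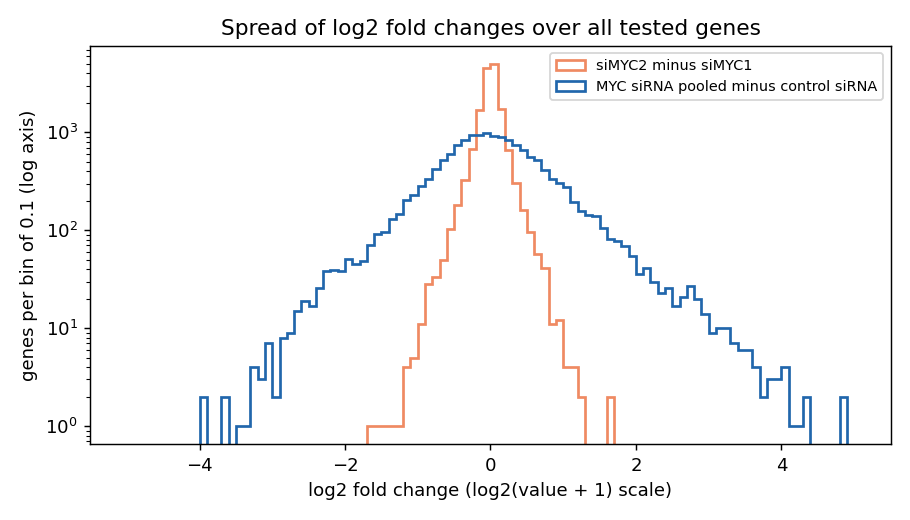
Number of tested genes per bin of 0.1 in log2 fold change, on a log axis, for siMYC2 minus siMYC1 (orange) and for the MYC siRNAs pooled minus control siRNA (blue). The siRNA difference is a narrow peak with a median absolute value of 0.0738, and the pooled effect is several times wider, with a median absolute value of 0.455.

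MYC siRNA changed most of the measured transcriptome of these cells. The genes of DNA replication, mitosis, nucleotide supply and ribosome production fell together, while collagens, matrix proteins, metalloproteinases, lysosomal genes and the inhibitor CDKN1A rose. Of 15796 genes whose mean over the table reached 10, 10976 (69.5%) passed limma's test at a Benjamini-Hochberg adjusted p below 0.05, which is what "called" means throughout. Of these, 5525 (35%) were higher and 5451 (34.5%) lower with MYC siRNA, and 1630 (10.3%) and 1342 (8.5%) changed at least 2-fold in these directions. The median over all tested genes was -0.005, so each list below is read against these shares and a median near 0. Normalized values are relative within a library, so a change in total RNA per cell shared by all genes cannot be seen in them. All 4 siMYC libraries lay above both controls for 5813 genes (36.8%) and below both for 5855 (37.1%). Taken alone, siMYC1 called 10353 genes (65.5%), 5239 higher (33.2%) and 5114 lower (32.4%). siMYC2 called 10383 (65.7%), 5232 higher (33.1%) and 5151 lower (32.6%). The 2 control libraries are common to both counts, which are therefore not independent. Per siRNA, STING1 was at 0.92 with siMYC1 and 0.92 with siMYC2, CDKN1A at 1.66 and 1.62, BIRC5 at -3.31 and -3.16, and COL1A1 at 2.82 and 2.86.

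The MYC transcript itself was lowered but still abundant in every library. MYC had 1538 and 1428 with siMYC1, 1504 and 1426 with siMYC2, and 2727 and 2663 with siC, which did not overlap. Its log2 fold change was -0.87 ± 0.04 (limma adjusted p = 3.97e-23), so the siMYC libraries held 54.7% of the control level on average. Around MYC, the list of its partners, antagonists and regulators had 2 higher and 10 lower of 17 tested, MYC itself left out. After quantile normalization 4 members of the list were higher. The mitotic kinase AURKA, which stabilises the MYC family member N-MYC, fell most (-1.81 ± 0.08). MYCBP, which binds the MYC amino terminus, fell too (-1.01 ± 0.15), and FBXW7, the ubiquitin ligase component that marks MYC for degradation, had 114 and 91.997 with siMYC1, 95.3 and 98.5 with siMYC2, and 194 and 179 with siC (-0.90 ± 0.12). The obligate partner MAX did not pass (0.13 ± 0.08, adjusted p = 0.116), but was called higher after quantile normalization (0.19).

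STING1 was higher in every MYC siRNA library than in either control, and CGAS was lower. STING1 had 194 and 177 with siMYC1, 180.4 and 189 with siMYC2, and 93.3 and 101 with siC. This was a rise of 0.92 ± 0.10 on the log2 scale (limma adjusted p = 7.92e-11), and the groups did not overlap. CGAS had 99.3 and 102 with siMYC1, 107 and 94.6 with siMYC2, and 155 and 116 with siC (-0.41 ± 0.13, adjusted p = 0.00348). The 2 control values of CGAS lay far apart, and without the first control library its value was -0.20 with an adjusted p of 0.248, so its call rests on that library.

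**Figure D2:**
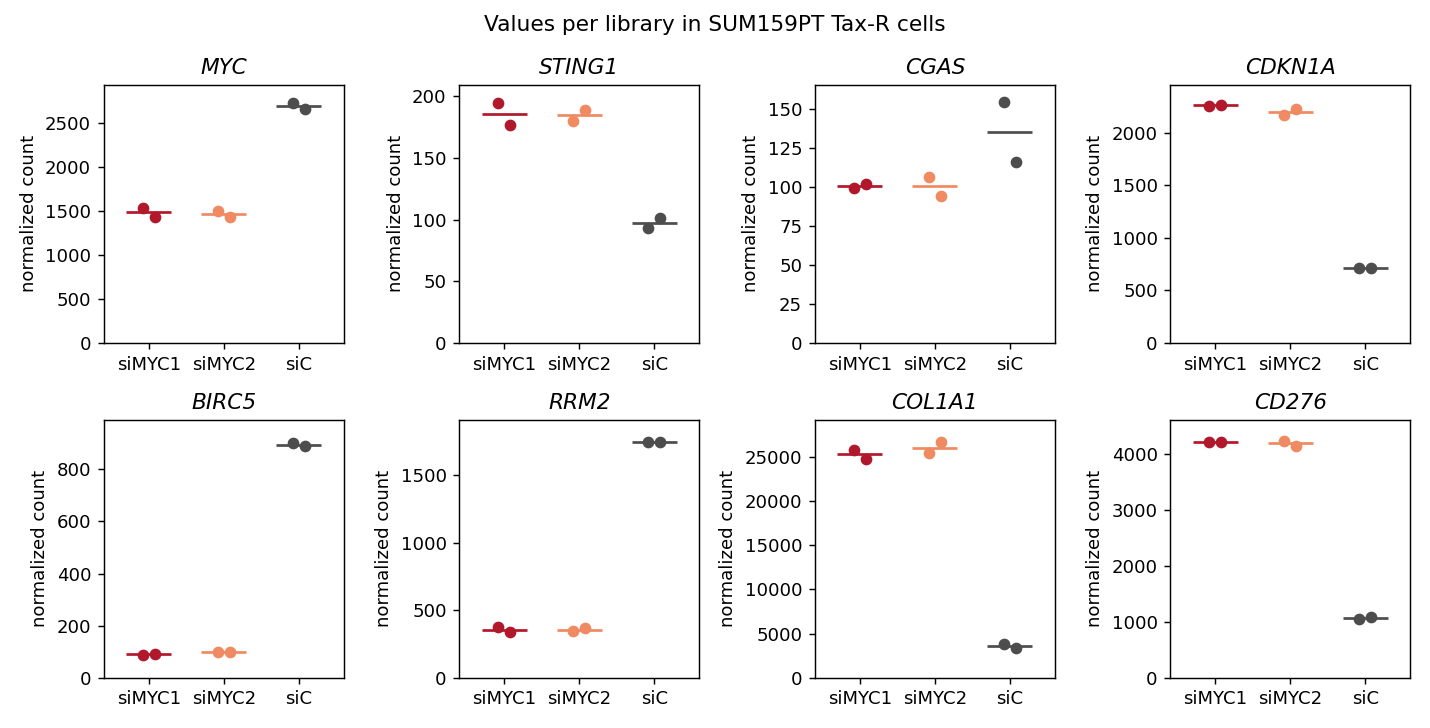
Normalized counts of 8 genes in each library (points) with group means (lines), for siMYC1, siMYC2 and siC. For MYC, BIRC5 and RRM2 the 4 siMYC points lie below both siC points, for STING1, CDKN1A, COL1A1 and CD276 they lie above, and for CGAS the 2 siC points lie far apart.

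Mitosis genes fell more than any other list with at least 10 tested members. Of 64 tested, 63 were called lower and 1 higher, beside 34.5% and 35% of all genes, with a list median of -2.21, and 62 were lower by at least 2-fold. BIRC5, the survivin subunit of the chromosomal passenger complex, had 87.8 and 91.1 with siMYC1, 100.4 and 98.5 with siMYC2, and 903 and 888 with siC (-3.23 ± 0.09, limma adjusted p = 3.27e-33). HMMR, a spindle protein, had 100.3 and 87.4 with siMYC1, 78.9 and 88.7 with siMYC2, and 788 and 856 with siC (-3.20 ± 0.10). For both genes every siMYC library lay far below both controls. NUF2, a kinetochore subunit of the NDC80 complex, and CDCA8, another passenger complex subunit, stood at -3.001 ± 0.12 and -2.83 ± 0.11. The exception that rose was CDC25B, a phosphatase that activates CDK1 (0.26 ± 0.04).

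Every tested replication gene fell. All 56 were called lower, 54 by at least 2-fold, with a median of -1.85. CDT1, which loads the MCM helicase at origins, had 115 and 118 with siMYC1, 118 and 134 with siMYC2, and 833 and 791 with siC (-2.74 ± 0.09, limma adjusted p = 5.87e-31). RFC3, a subunit of the clamp loader, had 77.3 and 92.9 with siMYC1, 68.7 and 69.9 with siMYC2, and 526 and 592 with siC (-2.85 ± 0.11). In both, all 4 siMYC libraries lay far below the controls. The GINS subunit GINS4 (-2.80 ± 0.15) and the histone chaperone ASF1B (-2.73 ± 0.10) fell by similar amounts. The list spanned -0.33 to -2.85.

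Genes for DNA repair and the Fanconi anemia pathway followed, with 1 higher and 42 lower of 47 tested and a median of -1.02. FANCD2, the pathway's central ubiquitinated protein, had 85.7 and 94.7 with siMYC1, 114 and 83.7 with siMYC2, and 775 and 769.8 with siC (-3.03 ± 0.10). The end-joining polymerase POLQ (-2.98 ± 0.14) and the glycosylase NEIL3 (-2.70 ± 0.17) also fell. The damage kinase ATM, by contrast, stood at 0.00 ± 0.05 (adjusted p = 0.959).

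Cell cycle entry genes were mixed, but the largest changes were falls. The list of G1 cyclins, CDKs and their inhibitors had 4 higher and 18 lower of 24 tested. CKS1B, the CDK subunit that helps destroy p27, had 66.9 and 60.1 with siMYC1, 63.5 and 66.990 with siMYC2, and 571 and 578 with siC (-3.14 ± 0.11). Its paralog CKS2 (-2.69 ± 0.09), the phosphatase CDC25A (-2.58 ± 0.12) and CDK2 (-1.92 ± 0.07) were lower as well. CDKN1A, the inhibitor p21, went the other way with 2257 and 2259 with siMYC1, 2168 and 2226 with siMYC2, and 714 and 715 with siC. That is a rise of 1.64 ± 0.04 (limma adjusted p = 5.24e-34), and replicates lay close together. Other p53 targets went both ways, 13 higher and 6 lower of 24 tested with CDKN1A left out, with TP53I3 at 1.73 ± 0.12, the kinase PLK3 at 1.57 ± 0.12 and PLK2 at -1.16 ± 0.09.

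Nucleotide synthesis genes fell almost without exception. Of 30 tested, 28 were called lower and 1 higher, with a median of -1.18. RRM2, the regulated subunit of ribonucleotide reductase, had 374 and 337 with siMYC1, 343 and 365 with siMYC2, and 1749.9 and 1744 with siC (-2.30 ± 0.06, limma adjusted p = 2.32e-34). Thymidine kinase TK1 had 243 and 237 with siMYC1, 229.6 and 240.4 with siMYC2, and 1009.6 and 954 with siC (-2.04 ± 0.07). The groups of both genes were far apart, with little spread among the siMYC libraries. RRM1 (-1.67 ± 0.06) and thymidylate synthase TYMS (-1.84 ± 0.06) fell by somewhat less. In polyamine synthesis, AMD1 (-1.16 ± 0.07), spermidine synthase SRM (-1.04 ± 0.06) and the antizyme inhibitor AZIN1 (-0.86 ± 0.05) fell, and SMOX, which oxidises spermine, rose (1.56 ± 0.07), within 3 higher and 8 lower of 11 tested.

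Ribosome biogenesis factors fell with a median of -0.88, 53 of 59 called lower and 2 higher. DDX21, a helicase of rRNA transcription and processing, had 289 and 271 with siMYC1, 276 and 296 with siMYC2, and 1240.3 and 1333 with siC (-2.18 ± 0.07, limma adjusted p = 5.62e-32). NOLC1, a nucleolar chaperone of small nucleolar RNPs, had 310.3 and 308 with siMYC1, 319.8 and 319 with siMYC2, and 898 and 962 with siC (-1.56 ± 0.07). The control libraries stood well above all 4 siMYC libraries for both. LYAR (-1.74 ± 0.12) and NLE1 (-1.58 ± 0.12) fell in the same way. Not every member did: the large RNA polymerase I subunit POLR1A stood at -0.05 ± 0.08 (adjusted p = 0.642).

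The genes of the finished ribosome moved less but in the same direction. Of 78 tested ribosomal protein genes 76 were called lower and 0 higher, with a median of only -0.35. RPS7 had 1521 and 1417 with siMYC1, 1423 and 1532 with siMYC2, and 2470.1 and 2554 with siC (-0.77 ± 0.04) and RPL24 had 1251 and 1222 with siMYC1, 1268 and 1288 with siMYC2, and 1995 and 2130.5 with siC (-0.71 ± 0.04). RPL17 (-1.07 ± 0.14) and RPL26 (-0.75 ± 0.10) were the others of largest change at a mean of at least 50. Ribosomal protein genes have many near-identical pseudogenes, so reads of single members may be split between copies. Genes that host small nucleolar RNAs had 15 of 17 lower and 0 higher (median -0.79), among them SNHG15 (-1.79 ± 0.17), SNHG16 (-1.75 ± 0.08), SNHG1 (-1.34 ± 0.08) and GAS5 (-1.10 ± 0.06).

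Other genes of RNA and protein production fell too. Splicing factors had 1 higher and 28 lower of 31 tested (median -0.86), with the Sm protein SNRPD1 at 145 and 139 with siMYC1, 130.2 and 127 with siMYC2, and 514 and 563 with siC (-1.98 ± 0.09). The U6-associated LSM6 (-1.96 ± 0.17), HNRNPA2B1 (-1.28 ± 0.04) and SNRPB (-1.21 ± 0.06) fell as well. Aminoacyl-tRNA synthetases had 2 higher and 18 lower of 23 tested, led by FARSB for phenylalanine (-1.82 ± 0.08) and IARS for isoleucine (-1.39 ± 0.05). Translation factors had 2 higher and 28 lower of 35 tested, led by EIF2S1, the alpha subunit of eIF2 (-1.10 ± 0.07), and including EIF5A, the factor that carries hypusine (-0.75 ± 0.04). Chaperones had 3 higher and 23 lower of 29 tested. In that list CCT5, a subunit of the TRiC chaperonin, had 1145 and 1084 with siMYC1, 1147 and 1118 with siMYC2, and 4581 and 4646 with siC (-2.04 ± 0.04), and CCT4 (-1.36 ± 0.05), CCT2 (-1.16 ± 0.05) and HSP90AA1 (-1.15 ± 0.04) were lower by about 2-fold or more.

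Mitochondrial genes fell to differing degrees. Import, chaperone and genome maintenance factors had 3 higher and 20 lower of 26 tested (median -0.69): the import channel TOMM40 (-1.94 ± 0.08), the chaperone TRAP1 (-1.86 ± 0.05), the DNA packaging factor TFAM (-1.67 ± 0.11) and the transcription factor TFB2M (-1.45 ± 0.16) fell. Nuclear genes of oxidative phosphorylation had a median of -0.17, with 9 higher and 32 lower of 61 tested, and the members of largest change with a mean of at least 50 moved less than 2-fold: ATP5J (-0.89 ± 0.08), ATP5G1 (-0.86 ± 0.08) and cytochrome c1, CYC1 (-0.75 ± 0.05). Mitochondrially encoded transcripts were not analysed here. Glycolysis genes had no common direction, with 11 higher and 9 lower of 26 tested. The list median was 0.05 and became -0.05 after quantile normalization. Within it the lactate exporter SLC16A3 had 2435 and 2233 with siMYC1, 2376 and 2353 with siMYC2, and 658 and 629 with siC (1.87 ± 0.05), and the glucose transporter SLC2A1 rose (0.79 ± 0.04), while LDHB (-0.69 ± 0.04) and PFKM (-0.54 ± 0.05) fell.

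**Figure D3:**
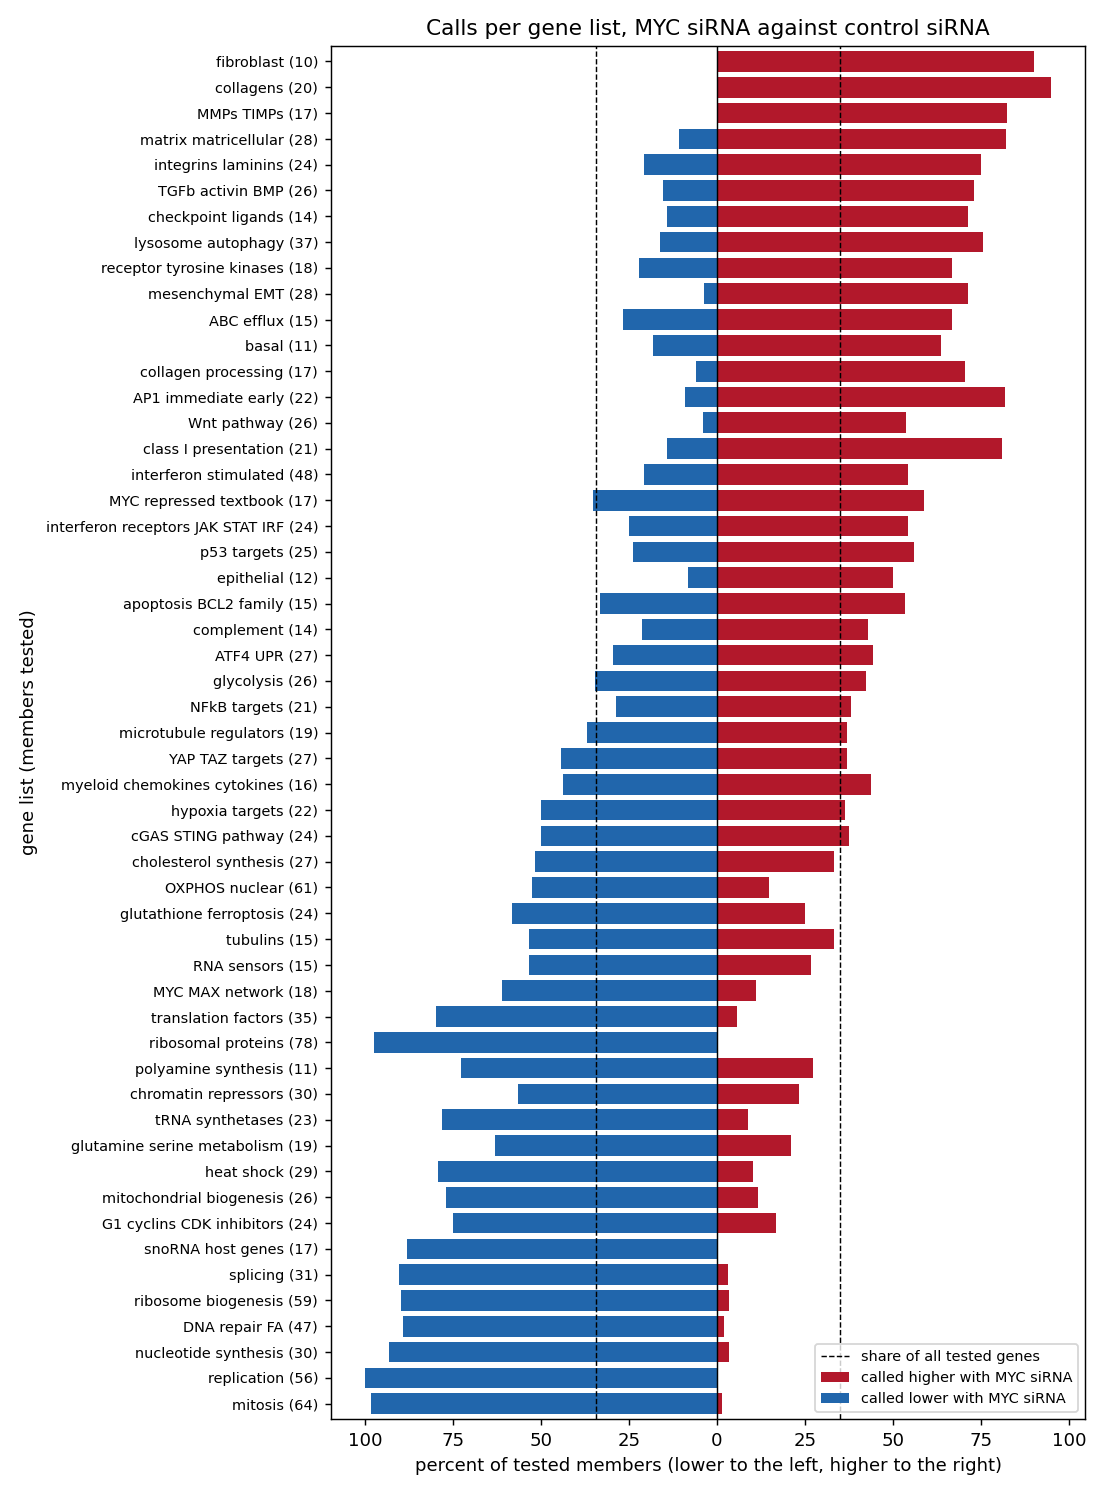
Percent of each gene list's tested members called higher (red, to the right) or lower (blue, to the left) with MYC siRNA, lists with at least 10 tested members ordered by median log2 fold change; dashed lines mark the shares over all tested genes, 35% higher and 34.5% lower. Collagen, matrix and fibroblast lists stand at the top and replication (56 of 56 lower) and mitosis (63 of 64 lower) at the bottom.

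The motifs before gene starts varied between the lists, and not only with their direction. Promoter windows from RefSeq (GRCh38.p14, 250 bases before to 50 after the gene start) were searched on both strands for the E-box CACGTG, which reads the same on either strand, and for TTTGAA. The second motif was chosen after the falls of mitosis genes had been seen. CACGTG was in 7.43% of all 27305 windows and 10.2% of those of tested genes, in 37.3% of ribosome biogenesis windows (19 of 51), 23.1% of nucleotide synthesis windows (6 of 26), 16.7% of replication windows (8 of 48), 11.1% of mitosis windows (6 of 54) and 4% of heat shock windows (1 of 25). TTTGAA was in 15.4% of all windows and 9.66% of those of tested genes, in 70.4% of mitosis windows (38 of 54), 15.7% of ribosome biogenesis windows (8 of 51), 4.17% of replication windows (2 of 48) and 21.4% of windows of collagens (3 of 14), a list that rose. Over the 903 windows of genes called at least 2-fold lower the shares were 11.3% for CACGTG and 21.3% for TTTGAA, and over the 970 of genes called at least 2-fold higher they were 7.84% and 7.63%. CACGTG was also in 33.3% of windows of lysosome and autophagy genes (8 of 24), a list that mostly rose, and in 0 of 14 collagen windows. A match is a description of the letters, not a bound site.

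The 150 bases just before the gene start are shown, 5′ to 3′ on the gene's strand, with CACGTG in capitals. The examples are ribosome biogenesis and nucleotide synthesis genes that were called lower and hold CACGTG in that stretch. They are not a ranking, and members that hold it and fell further may have been left out. UTP20 (chr12:101279955-101280104, plus strand) and DDX31 (chr9:132669984-132670133, minus strand) are a component of the small subunit processome and a nucleolar helicase, and they stood at -1.06 and -0.88. ATIC (chr2:215311909-215312058, plus strand) closes the purine ring and MTHFD1 (chr14:64388203-64388352, plus strand) supplies its one-carbon units, and they stood at -0.78 and -0.73.
UTP20: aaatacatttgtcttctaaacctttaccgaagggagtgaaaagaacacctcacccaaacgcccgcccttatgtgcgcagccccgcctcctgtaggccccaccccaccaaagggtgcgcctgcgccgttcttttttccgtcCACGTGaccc
DDX31: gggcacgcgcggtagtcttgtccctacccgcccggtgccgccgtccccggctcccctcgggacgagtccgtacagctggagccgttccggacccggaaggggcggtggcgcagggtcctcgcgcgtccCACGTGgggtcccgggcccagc
ATIC: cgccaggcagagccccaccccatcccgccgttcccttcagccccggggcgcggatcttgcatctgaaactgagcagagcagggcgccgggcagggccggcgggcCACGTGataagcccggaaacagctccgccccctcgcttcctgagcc
MTHFD1: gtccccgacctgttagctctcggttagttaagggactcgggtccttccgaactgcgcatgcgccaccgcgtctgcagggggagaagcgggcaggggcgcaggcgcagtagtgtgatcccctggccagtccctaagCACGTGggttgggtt

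The same stretch is shown for examples of mitosis genes that were called lower and hold TTTGAA, in capitals on either strand. These are not a ranking either. HMMR (chr5:163460482-163460631, plus strand), CDCA8 (chr1:37692366-37692515, plus strand), the chromokinesin KIF4A (chrX:70289954-70290103, plus strand, -2.72) and the spindle protein DLGAP5 (chr14:55191586-55191735, minus strand, -2.47) hold it. In HMMR, CDCA8 and KIF4A the capitals lie in the last stretch before the gene start, and in DLGAP5 both lie toward the far end. HMMR holds TTTGAA in tandem, and the second match in DLGAP5 is on the other strand, so it reads TTCAAA here.
HMMR: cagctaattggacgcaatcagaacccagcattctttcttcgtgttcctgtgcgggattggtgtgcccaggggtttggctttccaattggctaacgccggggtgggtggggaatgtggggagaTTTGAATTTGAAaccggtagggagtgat
CDCA8: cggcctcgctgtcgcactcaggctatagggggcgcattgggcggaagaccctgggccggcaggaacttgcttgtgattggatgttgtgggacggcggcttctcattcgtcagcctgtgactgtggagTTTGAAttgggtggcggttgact
KIF4A: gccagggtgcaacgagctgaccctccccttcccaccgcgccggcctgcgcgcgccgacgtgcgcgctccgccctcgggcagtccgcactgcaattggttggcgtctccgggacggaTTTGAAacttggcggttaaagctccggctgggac
DLGAP5: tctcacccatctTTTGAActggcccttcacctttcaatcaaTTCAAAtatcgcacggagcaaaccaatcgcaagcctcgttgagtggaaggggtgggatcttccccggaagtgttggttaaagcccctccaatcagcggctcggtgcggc

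On the rising side, collagens stood out. Of 20 tested, 19 were called higher and 0 lower, with a median of 1.59, and 14 were higher by at least 2-fold. Another 11 of the list were below the filter of a mean of 10. That mean is taken over more siMYC than siC libraries, so a low gene that rises passes more readily than a low gene that falls. Below the filter, COL9A2 was lower with MYC siRNA (10.6 and 10.3 with siC, 1.04 to 4.10 with siMYC). COL5A3, also below it, was higher (0.962 and 0 with siC, 9.40 to 14.3 with siMYC). COL7A1, the anchoring fibril collagen, had 2005 and 2130.5 with siMYC1, 2121 and 2139.7 with siMYC2, and 120.2 and 123 with siC (4.10 ± 0.05, limma adjusted p = 5.83e-47). COL1A1, the main chain of type I collagen, had 25778 and 24798 with siMYC1, 25435 and 26653 with siMYC2, and 3851 and 3340.1 with siC (2.84 ± 0.03). The siMYC libraries stood several times above both controls for each. COL6A1 (2.93 ± 0.06) and COL5A1 (2.58 ± 0.03) rose with them. Enzymes that modify or trim collagen had 12 higher and 1 lower of 17 tested, including the procollagen protease BMP1 (1.34 ± 0.04), the cross-linking oxidase LOXL1 (1.66 ± 0.15), the lysyl hydroxylase PLOD1 (1.01 ± 0.04) and P4HB, the beta subunit of prolyl hydroxylase (0.86 ± 0.03).

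Other matrix genes rose with them. Matrix and matricellular genes had 23 higher and 3 lower of 28 tested (median 1.01). The proteoglycan VCAN had 308 and 282 with siMYC1, 293 and 261 with siMYC2, and 45.2 and 38.3 with siC (2.75 ± 0.11), and fibrillin FBN1 had 382 and 383 with siMYC1, 368 and 409.8 with siMYC2, and 59.6 and 58.980 with siC (2.68 ± 0.09). LTBP3 (2.38 ± 0.06) and LTBP2 (2.28 ± 0.08), which bind latent TGF-beta or fibrillin, also rose. The members that fell included CYR61, a matricellular YAP target, with 1159 and 1061 with siMYC1, 1165 and 1083 with siMYC2, and 4547 and 4401 with siC (-2.002 ± 0.04). Metalloproteinases, their inhibitors and plasminogen activators had 14 of 17 higher and 0 lower (median 1.31). MMP2, a gelatinase, had 3309 and 3262 with siMYC1, 3334 and 3398 with siMYC2, and 925 and 840.2 with siC (1.91 ± 0.04), the inhibitor TIMP3 rose by 2.03 ± 0.10 and the serpin SERPINE2 by 2.24 ± 0.08. MMP14 was close to the filter and did not pass (-0.15 ± 0.31, adjusted p = 0.691).

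Adhesion receptors and growth factor ligands moved in the same direction. Integrins and laminins had 18 higher and 5 lower of 24 tested: ITGB8, which activates TGF-beta (2.43 ± 0.08), ITGB4 of hemidesmosomes (2.18 ± 0.08) and the vitronectin receptor chain ITGB3 (1.79 ± 0.06) rose, and ITGA6, the partner of ITGB4, fell (-1.77 ± 0.07). TGF-beta, activin and BMP genes had 19 higher and 4 lower of 26 tested. GDF15, a stress-induced cytokine, had 753 and 701 with siMYC1, 711 and 739.8 with siMYC2, and 88.5 and 92.1 with siC (2.99 ± 0.07). The ligands GDF11 (2.46 ± 0.13) and TGFB2 (2.19 ± 0.10) and the inhibitory SMAD7 (1.74 ± 0.10) rose too. Wnt genes had 14 higher and 1 lower of 26 tested, with the ligand WNT7B at 169 and 158 with siMYC1, 153 and 159 with siMYC2, and 6.73 and 3.10 with siC (4.83 ± 0.19), the highest fold change that the naming rule selected. The antagonists DKK3 (2.04 ± 0.04) and DKK1 (2.25 ± 0.14) and the receptor ligase ZNRF3 (1.31 ± 0.10) were higher as well. WNT7B passed the filter only through its siMYC libraries, since both siC values were below 10. Another 7 of the Wnt list were below the filter, which a low gene that rises passes more readily. Among these, WNT10B was lower with MYC siRNA (15.4 and 9.31 with siC, 0.911 to 4.10 with siMYC). FZD8 was higher (2.88 and 3.10 with siC, 9.11 to 16.7 with siMYC).

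Mesenchymal and fibroblast genes rose in cells that carry mesenchymal markers in all groups. The mesenchymal list had 20 higher and 1 lower of 28 tested (median 0.62), with TNC at 5833 and 5909 with siMYC1, 5888 and 5944 with siMYC2, and 1333 and 1313 with siC (2.15 ± 0.04), SPARC at 1.79 ± 0.04 and the myosin light chain MYL9 at 2.35 ± 0.06. VIM did not pass (-0.02 ± 0.03, adjusted p = 0.567), but was called lower after quantile normalization (-0.40). The fibroblast list had 9 of 10 higher and 0 lower. PDGFRB had 335 and 347 with siMYC1, 307 and 297 with siMYC2, and 32.7 and 27.9 with siC (3.37 ± 0.11) and PDGFRA rose by 1.5003 ± 0.09. Summed over its 14 matched genes, most of it COL1A1, the fibroblast list reached 32112 to 34337 normalized counts in siMYC libraries and 6217 to 6918 in siC libraries, with no member at 0 in every library. LUM, COL1A2, THY1 and PDPN were below the filter. Of these, LUM went against the list, with 16.3 and 12.4 with siC and 2.05 to 9.40 with siMYC. COL1A2, THY1 and PDPN did not exceed 1.02, 5.47 and 1.03 in any library. Whether cells of another type add to this was not tested. Epithelial markers had 6 higher and 1 lower of 12 tested, with MUC1 (1.06 ± 0.07) and DSP (1.16 ± 0.11) higher and CLDN1 lower (-1.02 ± 0.09), and their sum was 15793 to 16463 in siMYC and 11516 to 11994 in siC libraries.

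Among other receptors, PDGFRB rose most in the receptor tyrosine kinase list (12 higher and 4 lower of 18 tested). EPHB2 had 138 and 128 with siMYC1, 140.4 and 133 with siMYC2, and 15.4 and 17.6 with siC (2.96 ± 0.15), the collagen receptor DDR1 rose (1.77 ± 0.04), and MET, the HGF receptor, fell (-1.63 ± 0.07). Immediate early and MAPK feedback genes had 18 higher and 2 lower of 22 tested (median 0.55). In that list FOS had 190.2 and 166 with siMYC1, 171 and 162 with siMYC2, and 40.4 and 38.3 with siC (2.10 ± 0.12), the ERK phosphatase DUSP6 had 171 and 202 with siMYC1, 174 and 205 with siMYC2, and 44.2 and 52.8 with siC (1.93 ± 0.12), and EGR1 (1.32 ± 0.12) and SPRY4 (1.36 ± 0.06) were higher too.

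Lysosome and autophagy genes had 28 higher and 6 lower of 37 tested (median 0.68). LAMP2, a lysosomal membrane protein, had 2359 and 2448 with siMYC1, 2287 and 2362 with siMYC2, and 625 and 662 with siC (1.88 ± 0.04, limma adjusted p = 4.73e-36). TFEB, the transcription factor that drives lysosome genes through CACGTG-containing sites, had 155 and 173 with siMYC1, 151 and 151 with siMYC2, and 49.998 and 43.5 with siC (1.73 ± 0.12), and the protease CTSF rose (1.46 ± 0.11). The proton pump subunit ATP6V1A went against them with 147 and 148 with siMYC1, 173 and 128 with siMYC2, and 645 and 654 with siC (-2.12 ± 0.09).

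**Figure D4:**
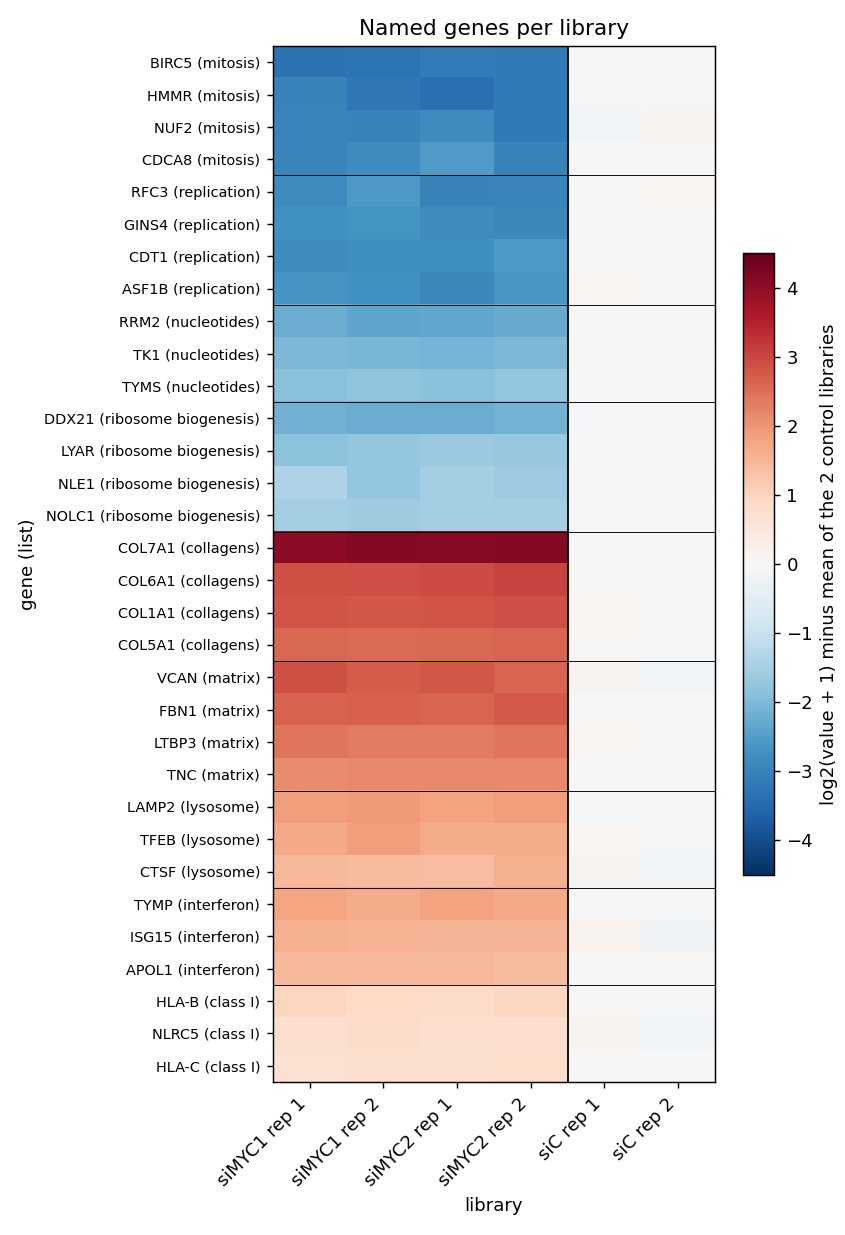
log2(value + 1) of 32 named genes in each library minus the mean of the 2 siC libraries, blue lower and red higher, grouped by gene list. The 4 siMYC columns look alike in every row, from BIRC5 at the top (-3.23) to HLA-C at the bottom (0.73), with COL7A1 highest (4.10).

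Immune genes rose in part. Genes of antigen presentation on class I had 17 of 21 higher and 3 lower, with changes under 2-fold and a median of 0.46. HLA-B had 3771 and 3530.5 with siMYC1, 3457 and 3673 with siMYC2, and 1999.9 and 1839.8 with siC (0.91 ± 0.04, limma adjusted p = 3.8e-25), HLA-C rose by 0.73 ± 0.04, the class I transactivator NLRC5 by 0.77 ± 0.06 and the peptide transporter TAP1 by 0.67 ± 0.04. HLA genes are polymorphic and alike, so reads may be split between them. Interferon-stimulated genes had 26 higher and 10 lower of 48 tested (median 0.29), and 22 higher and 6 lower by DESeq2. ISG15, the ubiquitin-like modifier, had 232 and 229.5 with siMYC1, 220.4 and 226 with siMYC2, and 84.6 and 69.3 with siC (1.55 ± 0.10), and TYMP (1.74 ± 0.06), ISG20 (1.48 ± 0.16) and APOL1 (1.46 ± 0.07) rose. In the receptor and signalling list (13 higher and 6 lower of 24 tested), STAT2 (0.75 ± 0.06), IRF1 (0.75 ± 0.08) and IL10RB (1.40 ± 0.13) were higher.

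The sensing pathway around STING1 did not move as a block. Its list had 9 higher and 12 lower of 24 tested, with a median of -0.16. The falls were larger than that of CGAS for RNASEH2A, the catalytic subunit of RNase H2, with 36.6 and 44.6 with siMYC1, 51.2 and 38.4 with siMYC2, and 221 and 226 with siC (-2.37 ± 0.15), for the cGAMP hydrolase ENPP1 (-1.85 ± 0.09) and for the DNA-dependent kinase PRKDC (-1.18 ± 0.04). ZDHHC1, a palmitoyltransferase that binds STING, rose (1.76 ± 0.14). The kinase target IRF3 stood at -0.01 ± 0.06 (adjusted p = 0.86). RNA sensors had 4 higher and 8 lower of 15 tested, with MAVS (0.82 ± 0.04) and ZC3HAV1 (1.08 ± 0.07) higher and TRIM25 (-0.70 ± 0.05) and TLR3 (-0.94 ± 0.11) lower.

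The T cell chemokines CCL5 and CXCL11 were low in all libraries, and CXCL16 was higher. CCL5 had 28.2 and 18.2 with siMYC1, 20.5 and 22.7 with siMYC2, and 12.5 and 10.3 with siC (0.90 ± 0.29, limma adjusted p = 0.00474). CXCL11 had 16.7 and 17.3 with siMYC1, 16.4 and 19.7 with siMYC2, and 2.88 and 6.21 with siC (1.80 ± 0.35, adjusted p = 1.41e-05). Both were called higher by limma, but CCL5 missed the threshold with DESeq2 (adjusted p = 0.0866) and without the second control library (adjusted p = 0.0525). CXCL10 did not exceed 4.55 in any library and was below the filter. CXCL16, which draws CXCR6-bearing T cells, had 129 and 147 with siMYC1, 152 and 154 with siMYC2, and 61.5 and 52.8 with siC (1.33 ± 0.12). Other cytokines went both ways (7 higher and 7 lower of 16 tested): IL6 had 85.7 and 108 with siMYC1, 92.2 and 75.9 with siMYC2, and 24.999 and 34.1 with siC (1.59 ± 0.17), LIF rose (1.45 ± 0.08), and CCL20 with 57.5 and 58.3 with siMYC1, 49.2 and 57.1 with siMYC2, and 322 and 352 with siC fell (-2.58 ± 0.13), as did CSF3 (-1.55 ± 0.13). NF-kB targets had 8 higher and 6 lower of 21 tested, a share close to that of all genes, with BIRC3 (-1.62 ± 0.05) and NFKB1 (-1.04 ± 0.06) lower.

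Ligands that act on immune cells were mostly higher (10 higher and 2 lower of 14 tested, median 0.70). CD276, also called B7-H3, had 4217 and 4211 with siMYC1, 4238 and 4146 with siMYC2, and 1059 and 1085 with siC (1.97 ± 0.04, limma adjusted p = 8.84e-40). Galectin-3, LGALS3, had 1009 and 963 with siMYC1, 1061 and 1042 with siMYC2, and 250 and 275 with siC (1.95 ± 0.06), and the groups of both were far apart. TNFRSF14 (1.40 ± 0.11) and NT5E, the enzyme that makes adenosine (1.01 ± 0.05), rose as well. CD274, which encodes PD-L1, is named here after its value was seen: it had 88.8 and 91.997 with siMYC1, 84.044 and 73.9 with siMYC2, and 114 and 121 with siC (-0.47 ± 0.13, adjusted p = 0.00115), lower with MYC siRNA. The "do not eat me" ligand CD47 stood at 0.01 ± 0.05 (adjusted p = 0.897). Ligands of NK receptors had 3 higher and 3 lower of 7 tested, with MICA (-0.27 ± 0.06) and MICB (-0.58 ± 0.09) slightly lower and RAET1E higher (1.02 ± 0.14).

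Metabolic and drug-related lists held members going both ways. Serine and glutamine metabolism had 4 higher and 12 lower of 19 tested, with PSAT1 at 79.4 and 86.5 with siMYC1, 67.6 and 82.8 with siMYC2, and 287 and 345 with siC (-1.99 ± 0.12), asparagine synthetase ASNS at -1.57 ± 0.10 and PHGDH at -0.98 ± 0.07. Glutathione genes had 6 higher and 14 lower of 24 tested, led by GCLC (-1.49 ± 0.10), the rate-limiting enzyme of glutathione synthesis. Hypoxia targets split (8 higher and 11 lower of 22 tested), with VEGFA (1.39 ± 0.04) and HIF1A (0.94 ± 0.04) higher. Cholesterol synthesis split too (9 higher and 14 lower of 27 tested), with INSIG1 lower (-1.57 ± 0.06) and SREBF1 higher (1.06 ± 0.04). Tubulins, which taxanes bind as microtubules, had 5 higher and 8 lower of 15 tested. TUBA1B had 3966 and 3948 with siMYC1, 4014 and 3943 with siMYC2, and 11118 and 11213 with siC (-1.49 ± 0.03), and TUBB4B fell (-0.94 ± 0.04) while TUBG2 rose (1.05 ± 0.07). Drug efflux transporters had 10 higher and 4 lower of 15 tested, with ABCC3 (1.07 ± 0.04), ABCC4 (1.21 ± 0.11) and ABCA3 (2.49 ± 0.17) higher and ABCG2 lower (-1.09 ± 0.16). Among BCL2 family genes (8 higher and 5 lower of 15 tested), the BH3-only gene BMF had 1191 and 1119 with siMYC1, 1185 and 1184 with siMYC2, and 214 and 199 with siC (2.50 ± 0.06).

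Across all genes, the naming rule picked WNT7B, the ATP-gated channel P2RX1 (4.80 ± 0.14), COL7A1, the adhesion receptor ADGRG1 (4.07 ± 0.08), the chondroitin polymerase subunit CHPF (3.97 ± 0.05), CTD-2384B11.2 (3.95 ± 0.16), OLFML2A (3.94 ± 0.06), the secreted protease HTRA1 (3.81 ± 0.05), REEP2 (3.71 ± 0.21) and the cadherin CDH6 (3.68 ± 0.13) as the highest. WNT7B and CTD-2384B11.2 had siC values below 10, so they passed the filter only through their siMYC libraries. CHPF had 3879 and 3920.3 with siMYC1, 4116 and 4107 with siMYC2, and 284 and 229 with siC, and HTRA1 had 2885 and 2895 with siMYC1, 2934 and 3007 with siMYC2, and 205 and 210.1 with siC. At the other end stood the nucleosome binder HMGN5 with 41.8 and 40.989 with siMYC1, 40.997 and 43.3 with siMYC2, and 494 and 589 with siC (-3.66 ± 0.13). It was followed by RMI2 of the BLM complex (-3.64 ± 0.19), the nucleoplasmin NPM3 (-3.25 ± 0.14), BIRC5, HMMR, CKS1B, FAM72B (-3.10 ± 0.18), FAM72D (-3.07 ± 0.19), FANCD2 and FAM72C (-3.02 ± 0.19). FAM72B, FAM72C and FAM72D are near-identical copies, so their separate values are uncertain.

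The same siRNA design in MDA-MB-436 Tax-R cells gave a much smaller fall of MYC. MYC stood at -0.87 in SUM159PT and -0.09 in MDA-MB-436, and the difference was -0.78 ± 0.05 (SUM159PT minus MDA-MB-436, limma adjusted p = 2.14e-14). MDA-MB-436 alone called 10428 of 15399 genes (67.7%), 5235 higher (34%) and 5193 lower (33.7%). Over 14728 genes tested in both lines, 5188 (35.2%) had effects that differed, 1996 with a higher (13.6%) and 3192 with a lower (21.7%) effect in SUM159PT. Of 5167 genes higher in SUM159PT, 3957 (76.6%) were also higher in MDA-MB-436, which is 78.2% of those higher there, and 182 were lower. Of 5303 genes lower in SUM159PT, 3964 (74.8%) were also lower there, 78.4% of those lower in MDA-MB-436, and 231 were higher. Over all shared genes, MDA-MB-436 called 34.3% each way. The lines share no library.

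The cell division lists fell further in SUM159PT than in MDA-MB-436. For mitosis the median was -2.21 in SUM159PT and -0.57 in MDA-MB-436 over the same 64 genes, and 63 of them had a difference called in that direction, beside 21.7% of all shared genes. For replication the medians were -1.85 and -0.65, with 52 of 56 called. Nucleotide synthesis had -1.18 and -0.57, with 23 of 30 called. Ribosome biogenesis medians were closer, at -0.88 and -0.75, with 7 of 59 called higher and 24 lower in the difference. Collagen medians were 1.59 and 1.58 over 16 shared genes, but single members differed. Of the 16, 4 had a higher and 8 a lower effect in SUM159PT, beside 13.6% and 21.7% of all shared genes. COL1A1 was at 2.84 in SUM159PT and 3.84 in MDA-MB-436. The centromere loading factor HJURP was at -2.23 in SUM159PT and 0.03 in MDA-MB-436 (difference -2.26 ± 0.11), and the mitotic helicase ERCC6L was at -2.81 and -0.62.

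**Figure D5:**
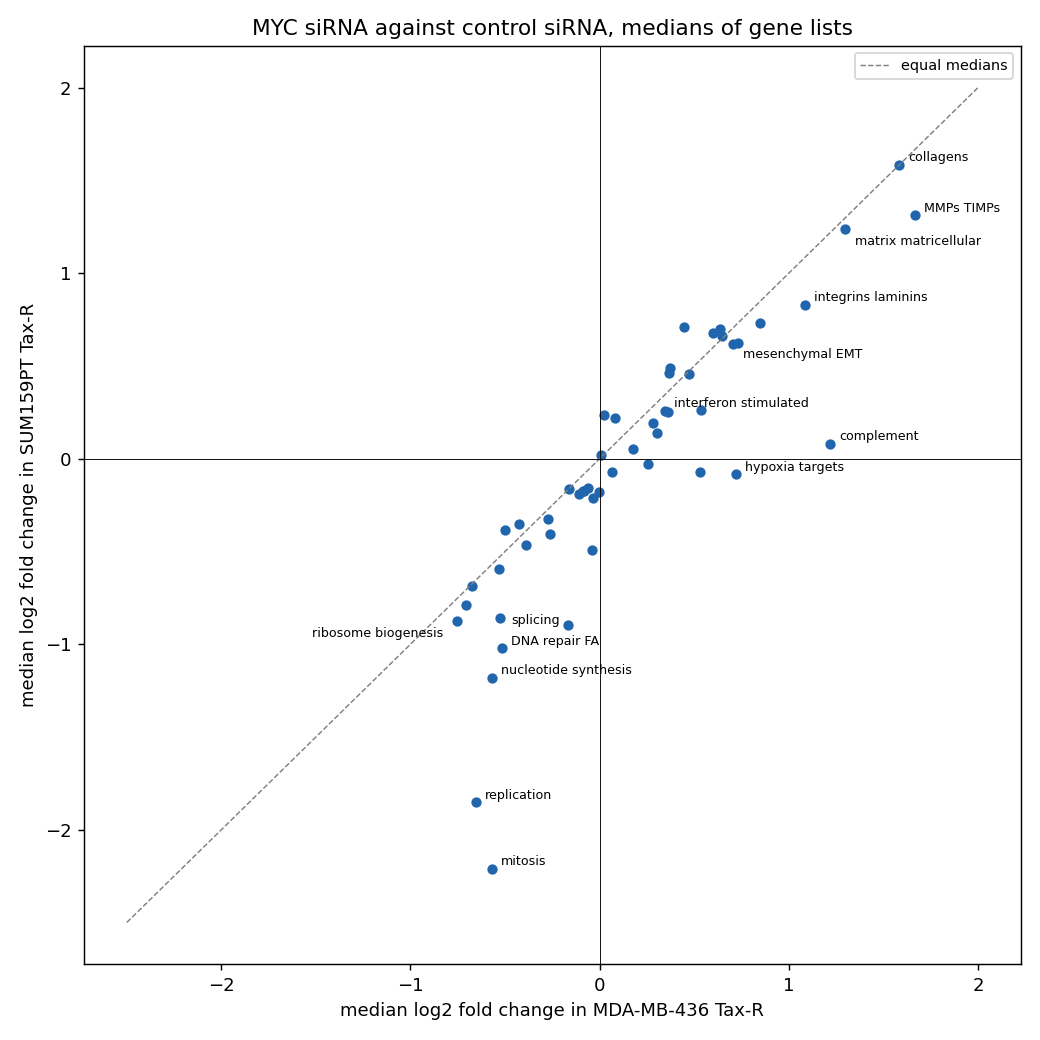
Median log2 fold change of each gene list with MYC siRNA in SUM159PT Tax-R (vertical axis) and in MDA-MB-436 Tax-R (horizontal axis), over genes tested in both lines, with the line of equal medians dashed. Mitosis and replication lie far below the line at medians of -2.21 and -1.85 in SUM159PT. The collagen median lies on it, although single collagens differed between the lines.

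STING1 and the hypoxia targets had higher effects in MDA-MB-436, and single genes differed either way. STING1 rose in both lines, by 0.92 in SUM159PT and 2.003 in MDA-MB-436, a difference of -1.08 ± 0.24 (limma adjusted p = 0.000509). The lipase inhibitor ANGPTL4 was at 0.03 in SUM159PT and 2.64 in MDA-MB-436, and the aldolase ALDOC at 0.35 and 2.68. Hypoxia targets as a list had a median of -0.08 and 0.72, with 16 of 22 lower in the difference and 0 higher. The Wnt antagonist DKK1 was at 2.25 in SUM159PT and -0.05 in MDA-MB-436. The synaptic scaffold PCLO was at 1.69 and -0.26, GLP2R at 1.48 and -0.71, LTBP2 at 2.28 and 0.36, GPR173 at 1.93 and 4.14, and CLDN1 at -1.02 and -3.11.

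SUM159PT Tax-R and parental cells whose labels name no siRNA have a table of their own, which shares no library with the siRNA table. They show where MYC siRNA moved genes against or along the Tax-R difference. STING1 was lower in Tax-R than in parental cells (-1.71 ± 0.08, limma adjusted p = 2.03e-07), and MYC did not pass (0.11 ± 0.06, adjusted p = 0.149). That comparison called 45.7% of its genes (8386 of 18370), 4322 higher (23.5%) and 4064 lower (22.1%) in Tax-R cells. Of 3076 genes lower in Tax-R cells and tested in both tables, 1212 (39.4%) were higher with MYC siRNA and 995 (32.3%) were lower. Of 3873 genes higher in Tax-R cells, 1623 (41.9%) were higher and 1361 (35.1%) lower. Over all shared genes 34.7% were higher and 36.2% lower with MYC siRNA, so these shares lie near the background. Interferon-stimulated genes had 40 of 48 lower and 1 higher in Tax-R cells, and 26 of 48 higher and 10 lower with MYC siRNA. How many were both lower in Tax-R cells and higher with MYC siRNA was not counted. ISG20 was at -1.63 ± 0.19 in Tax-R against parental cells, PDGFRB at -1.28 ± 0.17, BMF at -2.38 ± 0.10 and P2RX1 at -4.77 ± 0.26, all of which rose with MYC siRNA. COL1A1 (0.72 ± 0.04), NT5E (1.15 ± 0.04) and CDKN1A (0.73 ± 0.07) were higher in Tax-R cells and also rose with MYC siRNA.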

How the data were processed

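Per the labels, RNA came from a Maxwell simplyRNA extraction and libraries from Illumina protocols. Deposited values are in the unit signal: read counts per gene, which the authors had scaled by a size factor for each library inside a table. HISAT2, featureCounts, StringTie and DESeq2 are named, without versions, by the submitters' processing notes. No genome build is given in the sources used here. Within a tolerance of 0.05 reads, 100% of values in the SUM159PT siRNA table were whole multiples of a step that each library has of its own, which gave back whole reads (6638863 to 7728815 per library). Depth limits precision for genes near the filter.

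A gene was tested where its mean over the table was at least 10. The siRNA tables hold more siMYC than siC libraries, so a low gene that rose passed more readily than one that fell. limma-trend was run on log2(value + 1), with 2 libraries per group and the 3 groups in 1 fit. The p-values, for tests on both sides, were adjusted over all tested genes by Benjamini-Hochberg and called below 0.05. The pooled contrast was the mean of siMYC1 and siMYC2 minus siC. The MDA-MB-436 table was joined by gene for the difference of effects, and the table of Tax-R and parental cells was fitted alone. Tables were normalized separately, so only differences within a table were compared. The fit ran in R 4.3.3 with limma 3.58.1. It was also run on simulated data in which only a small share of genes changed, unlike here. That run therefore does not measure the accuracy of the calls in these data. Recovered reads were also tested with edgeR (4.0.16) and with DESeq2 (1.42.0). In the tables used, 0 columns were left unmapped. Gene lists (61, with 1571 of 1670 entries matched) are described by counts and medians. Further alternatives were no filter, a pseudocount of 4, quantile normalization, a replicate block and each library left out in turn. No MDA-MB-436 library was left out.

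The libraries were taken by label and not by value, but this choice and the gene lists were made with earlier results of these data known. Genes named are MYC, STING1 and CGAS, up to 4 genes per list (those called with the largest absolute change), provided they had a mean of at least 50 and all 4 siMYC libraries on 1 side of both controls, the 10 highest and 10 lowest genes by the same conditions, the 5 highest and 5 lowest called between siMYC2 and siMYC1 (there were none), and the 5 highest and 5 lowest of the difference between lines with a mean of at least 50 in both tables. List members that did not pass are named as counter-examples. CDC25B, CD274, CCL5, CXCL11, CXCL10 and the genes whose promoters are shown were named after their values were seen.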

Additional observations from a re-analysis of the deposited data

Results flagged for a closer look

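The effect of MYC siRNA differed between SUM159PT and MDA-MB-436 Tax-R cells for 5188 of 14728 genes by limma's test of the difference itself, and each value below is that difference on the log2 scale (SUM159PT minus MDA-MB-436). MYC differed by -0.78 and STING1 (TMEM173) by -1.08. The effect was lower in SUM159PT for ANGPTL4 (-2.61), ALDOC (-2.33), HJURP (-2.26), GPR173 (-2.21) and ERCC6L (-2.20). It was higher in SUM159PT for DKK1 (2.29), GLP2R (2.19), CLDN1 (2.09), PCLO (1.95) and LTBP2 (1.92). CLDN1 fell in both lines, by less in SUM159PT. The smaller fall of MYC in MDA-MB-436 stands beside all of these; its part in them was not tested.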

How the results depend on the processing

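No called effect of MYC siRNA on a gene named in the text and no count of calls over all genes changed direction under the alternatives run. Called higher and lower with MYC siRNA were 5539 and 5474 genes with a pseudocount of 4, 5611 and 5410 without the filter, 5437 and 5424 after quantile normalization, 5489 and 5596 with edgeR and 4465 and 4415 with DESeq2, against 5525 and 5451. With a library left out they were 5083 to 5340 and 4927 to 5272. siMYC2 against siMYC1 called 0 genes, and 0 to 2 with a library left out: 2 without the first siMYC1 library and 1 without the second siMYC1, the first siMYC2 or the second siMYC2 library. Tax-R against parental cells called 7601 genes without the filter and 8587 after quantile normalization, against 8386, and fewer with any library left out. The difference between lines called 4965 genes without the filter and 5302 after quantile normalization, against 5188. It called fewer with any SUM159PT library left out, and fewest without the second siC library. For this difference only SUM159PT libraries were left out, and edgeR and DESeq2 were not run. Of the values of single genes, those of counter-examples included, 2989 kept direction and call and 5 lost the call: CGAS without the first siC library, CCL5 as given above, and the complement protease CFD without the second siC library (adjusted p = 0.0704) and with DESeq2 (adjusted p = 0.0712). Quantile normalization added calls for MAX and VIM. In 16 cases a gene that was not called changed sign: after quantile normalization ATM stood at -0.0190, CD47 at -0.0297, IRF3 at 0.00384 and POLR1A at 0.0128, and with edgeR ATM stood at -0.00188. With a library left out ATM ranged over -0.0975 to 0.104, CD47 over -0.0625 to 0.0788, IRF3 over -0.102 to 0.0763, VIM over -0.0377 to 0.00155 and MMP14 over -0.49 to 0.19.

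Deviations from group means correlated at 0.018, -0.032 and 0.0025 between same-numbered libraries over 15796 genes. Differences within the siMYC groups were near sampling noise, so these values cannot tell whether same-numbered libraries were paired. The replicate block gave 5536 higher and 5461 lower genes, and 0 for siMYC2 against siMYC1. Quantile normalization turned the medians of 2 lists near 0, glycolysis to -0.05 (7 higher and 12 lower) and NK ligands to -0.004. With DESeq2, fewer members were called higher in oxidative phosphorylation (5) and the G1 list (2), and fewer checkpoint ligands lower (1). Limits are 2 libraries per group, replicates that may be technical, and shared controls for both siRNAs. Genes below a mean of 10 were not tested.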

Other observations

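Chromatin regulators of gene silencing had 7 higher and 17 lower of 30 tested with MYC siRNA (median -0.41). UHRF1, which guides DNA methylation to new DNA, had 129.6 and 155 with siMYC1, 125 and 156 with siMYC2, and 511 and 515 with siC (-1.86 ± 0.09). The H3K9 methyltransferases SUV39H1 (-1.65 ± 0.13) and SUV39H2 (-1.55 ± 0.16) and the Polycomb subunit EED (-1.09 ± 0.12) fell too. Complement genes had 6 higher and 3 lower of 14 tested by limma and 3 higher and 1 lower by DESeq2, with the membrane inhibitor CD59 at 1.33 ± 0.04. YAP and TAZ targets went both ways (10 higher and 12 lower of 27 tested): IGFBP3 (1.90 ± 0.08) and tissue factor F3 (1.38 ± 0.05) rose while CYR61 fell (-2.002 ± 0.04). Targets of ATF4 and the unfolded protein response had 12 higher and 8 lower of 27 tested, with STC2 at 1.24 ± 0.04 and DNAJC3 at -1.26 ± 0.10. Microtubule regulators had 7 higher and 7 lower of 19 tested, with MAP1A (2.86 ± 0.13) and STMN3 (1.81 ± 0.09) higher and STMN1 (-1.24 ± 0.05) and CKAP5 (-1.06 ± 0.05) lower.

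Basal markers had 7 higher and 2 lower of 11 tested, with KRT15 at 94.041 and 111 with siMYC1, 95.3 and 107 with siMYC2, and 22.1 and 20.7 with siC (2.20 ± 0.16). A textbook list of genes that MYC represses had 10 higher and 6 lower of 17 tested: CDKN1A, PDGFRB and ARRDC4 (1.11 ± 0.06) rose, and TXNIP fell with 3118 and 3136 with siMYC1, 3043 and 3196 with siMYC2, and 6316 and 6489.8 with siC (-1.04 ± 0.04), while in MDA-MB-436 it was at 0.89. Class II genes had 2 higher and 1 lower of 4 tested. Luminal markers had 1 higher and 1 lower of 4 tested, with ERBB2 at 1107 and 1163 with siMYC1, 1158 and 1117 with siMYC2, and 694 and 633 with siC (0.78 ± 0.05). The endothelial list had 3 higher and 0 lower of 5 tested, with PECAM1 at 139 and 132 with siMYC1, 151 and 124 with siMYC2, and 48.1 and 55.9 with siC (1.38 ± 0.13) and a sum of 222.6 to 240.9 normalized counts in siMYC and 105.8 to 113.8 in siC libraries. The myeloid list had a sum of 45.1 to 53.3 in siMYC and 83.8 to 84.6 in siC libraries, with 1 member tested, called lower, and the T and B cell list had no member that passed the filter.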
